A study of Rattus norvegicus with 4 samples.

Results

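Messenger RNA levels of the cytosolic ribosomal proteins were compared between INS-1 cells grown in a bioprinted hydrogel and INS-1 cells grown as a monolayer. Symbols were taken by name (Rpl or Rps with a number, Rplp0 to Rplp2, and Rpsa, leaving out the kinases of Rps6), which matched 84 of the 23360 gene symbols in the files, and 70 of these had a mean of at least 1 TPM (a transcript level corrected for length and scaled to the same sum, 1000000, in each sample). They comprised 64 canonical ribosomal proteins (38 of the large and 26 of the small subunit), 5 symbols with a -like ending that were kept apart (Rpl22l1, Rpl36al, Rpl7l1, Rps19l2 and Rps27l), and Rps19bp1, a binding partner of Rps19 that shares its letters and is no ribosomal protein. INS-1 832/3 is a line from a rat insulinoma that secretes insulin and carries a human insulin gene, so all 4 cultures derive from 1 line. The 2D group was 2 standard monolayer cultures and the 3D group 2 cultures printed in the gelatin and laminin hydrogel GelXA LAMININK 411. All were at passage 3, were kept in RPMI-1640 with fetal bovine serum and Geneticin, and gave RNA after 5 days. Hydrogel, printing and light crosslinking came together in the 3D group and cannot be told apart.

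The ribosome is built from a small subunit, which holds the mRNA and reads its codons, and a large subunit, which joins amino acids and releases the chain through an exit tunnel. Its proteins are made in nearly equal numbers, and most of their mRNAs start with a run of pyrimidines, the 5′ terminal oligopyrimidine (TOP) element, through which growth signals set their translation. In a secretory cell such as the beta cell, ribosomes on the endoplasmic reticulum make the hormone that is stored in granules.

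The canonical members were abundant in all cultures. Their median level was 1491 TPM, beside 16.1 TPM over the 11960 genes tested, and 38 of the 100 most abundant genes were canonical members. Rps21, a protein of the small subunit, had the highest mean level at 8566 TPM, followed by Rpl21 (5550 TPM), Rps18 (4457 TPM), Rpl41 (3245 TPM) and Rps27a (3212 TPM). At the low end stood Rpl30 (5.61 TPM), Rps6 (90.8 TPM), Rpl7 (159 TPM), Rpl37a (191 TPM) and Rpl31 (205 TPM). Of the 14 matched symbols under 1 TPM, 8 had a -like ending. The other 6 were canonical: Rpl9, Rpl13, Rpl39, Rps29 and Rps4y2 were listed at 0 in every culture, and Rps20 was at 1.99 TPM in 2D replicate 1 and listed at 0 in the others. Further canonical symbols, among them Rplp2, Rpl22, Rps14 and Rps26, were not listed at all, so the members are not the complete set. A listed 0 in genes that cells need, and a few TPM for Rpl30, are values of the named symbols alone. Ribosomal proteins have many near-identical copies in the genome between which reads can be split. Whether this set the values of these symbols was not tested. Among copies of other members, the locus that RefSeq names Rps28-ps1 had a mean of 3704 TPM, above the 1464 TPM of Rps28 itself. Rps2-ps6 had 661 TPM.

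Taken as a share of all transcripts, the canonical members were lower in 3D culture. They held 10.92% and 10.99% of TPM in the 2D cultures and 9.94% and 9.45% in the 3D cultures, or 10.96% ± 0.045 (SD, n = 2) against 9.69% ± 0.347 (SD, n = 2), a ratio of 0.885. Both 3D cultures lay below both 2D cultures, which 2 against 2 can show with a two-sided exact permutation p of no less than 0.333. The subunits differed from 2D culture to a like degree. Large subunit members went from 5.78% ± 0.030 to 5.10% ± 0.169 and small subunit members from 5.18% ± 0.015 to 4.596% ± 0.178 (SD, n = 2 in each), so that the summed TPM of large over small subunit members was 1.11, 1.12, 1.11 and 1.11 in 2D replicates 1 and 2 and 3D replicates 1 and 2. The insulin transcripts took 14.26% of TPM in 2D and 15.04% in 3D culture, and with them left out of the total the members' share was 12.8% in 2D and 11.4% in 3D culture.

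**Figure D1:**
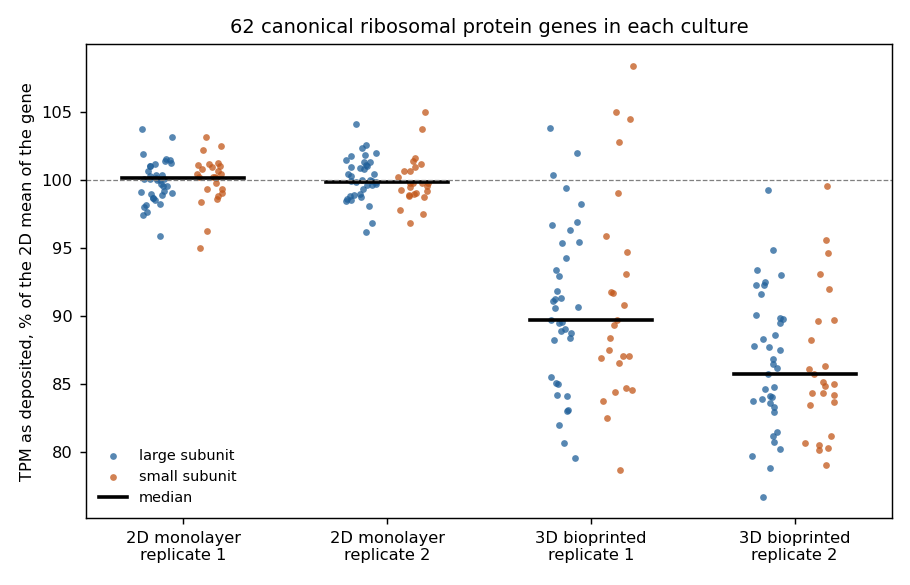
TPM as deposited of 62 canonical members in each culture, as a percent of the gene's mean in 2D culture (y axis, not starting at 0; each point a gene, blue for the large and orange for the small subunit, black bar the median over genes). Rpl30 and Rps6 are left out for their low level or wide spread. The medians were 100.1% and 99.9% in the 2D cultures and 89.7% and 85.7% in the 3D cultures.

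Gene by gene, the difference was small and nearly always downward. Of the 64 canonical members, 61 had a lower level in 3D than in 2D culture, against 50.5% of all genes tested, and their median log2 fold change was -0.22 (quartiles -0.29 and -0.14) beside -0.003 over all genes. On the values scaled between cultures, both 3D cultures lay below both 2D cultures in 55 members, which held for 38.2% of all genes, and above them in 1 member (37.3% of all genes). In limma's moderated test, fitted on log2(TPM + 1) across all genes with Benjamini-Hochberg adjustment, 29 of the 64 fell with an adjusted p below 0.05 and 0 rose. That is 45.3% of the members, where 19.5% of all genes were called lower and 18.5% higher (38.0% in all). At an unadjusted p below 0.05 in limma, 44 were lower and 1, Rpl30, was higher.

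These calls rested on all 4 cultures. The count of 29 became 24 without 2D replicate 1, 4 without 2D replicate 2, 0 without 3D replicate 1 and 0 without 3D replicate 2, in fits with 1 residual degree of freedom in place of 2 and with the lone culture taken to vary like the other group. At an unadjusted p below 0.05 in limma, the last 2 of these fits gave 30 and 9 lower members. The median log2 fold change was -0.26, -0.20, -0.27 and -0.18 in these 4 fits, with 62, 60, 62 and 57 of the 64 members below 0. Cultures of the same group also differed from each other. On the scaled values, 62 of the 64 canonical members were lower in 3D replicate 2 than in 3D replicate 1 and 5 were lower in 2D replicate 2 than in 2D replicate 1, with median gaps of 0.089 and 0.071 on the log2 scale. On the TPM as deposited these counts were 56 and 37, with median gaps of 0.068 and 0.031. Because RNA was taken from whole cultures, a lower level in every cell and fewer cells with a high level cannot be told apart. TPM are relative to all other transcripts, so an amount per cell is not given.

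**Figure D2:**
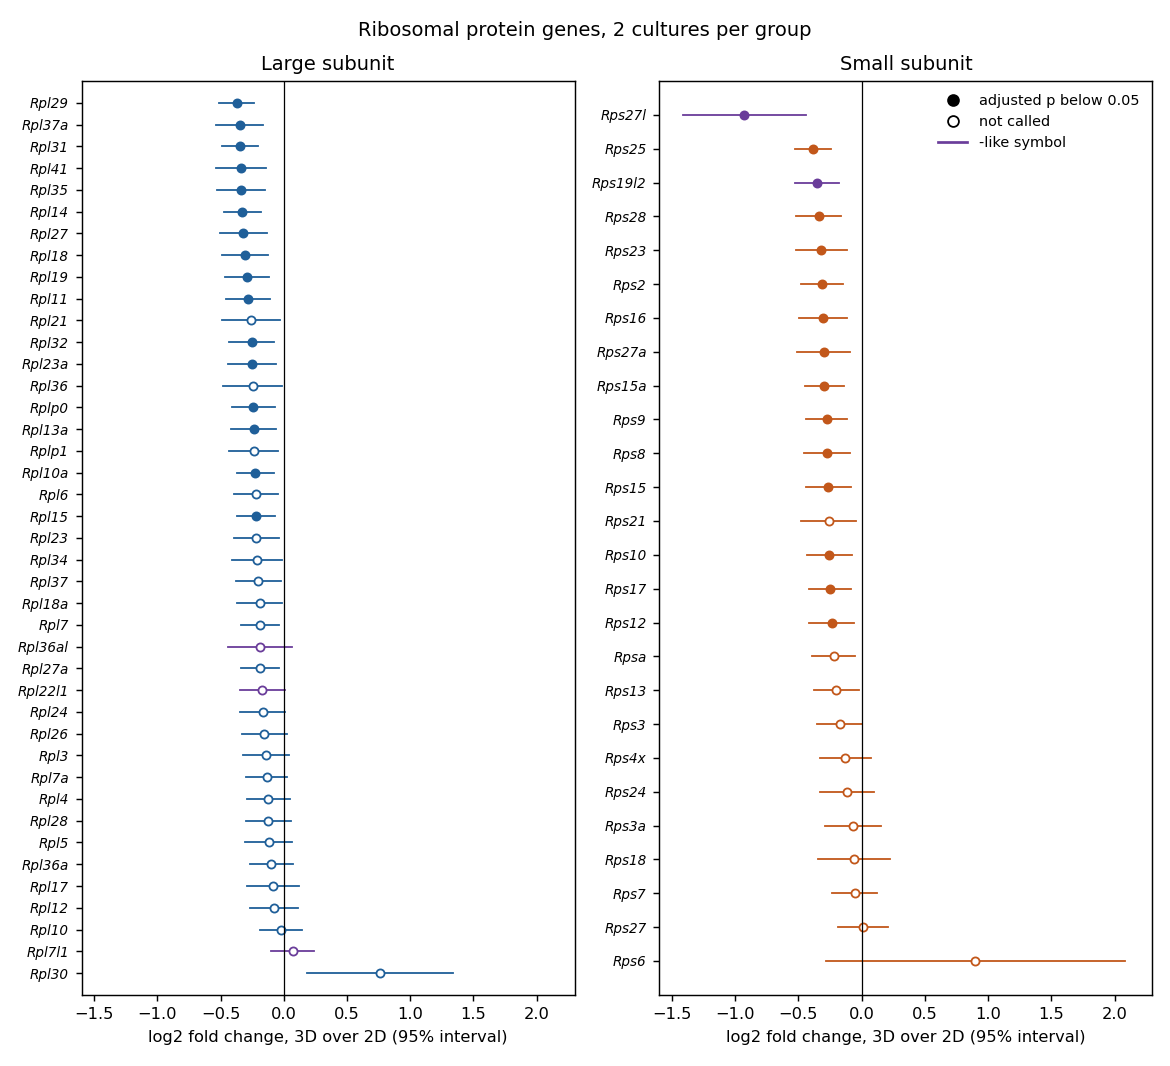
Log2 fold change of 67 of the 69 tested members, 3D over 2D (x axis, log2 scale; points limma estimates, lines 95% intervals), ordered by size within each subunit; filled points have an adjusted p below 0.05 and purple marks -like symbols. All but 4 of the 67 estimates lie left of 0, the intervals of most members overlap, and Rps27l lies farthest to the left.

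In the large subunit, 16 of 38 members fell (42.1%, beside 19.5% of all genes called lower), with a median log2 fold change of -0.22. Rpl29, a protein found only in eukaryotic ribosomes, was at 778 and 749 TPM in the 2D cultures and at 608 and 609 TPM in the 3D cultures. Both 3D values lay below both 2D values, and the log2 fold change was -0.37 (SE 0.055, adjusted p = 0.00813 in limma), a fall of 22.7% on the scaled values. Rpl37a, a zinc finger protein of the large subunit, was at 212 and 210 TPM in 2D and 180 and 162 TPM in 3D culture (log2 fold change -0.35, adjusted p = 0.0183 in limma). Rpl41, the shortest of the ribosomal proteins, was at 3514 and 3640 TPM in 2D and 2934 and 2889 TPM in 3D culture (log2 fold change -0.34, adjusted p = 0.0240 in limma). In each of these genes the 3D pair was separate from the 2D pair. Rpl14 and Rpl27 also fell, with log2 fold changes of -0.33 and -0.32.

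The proteins around the exit tunnel, where the new chain leaves and targeting factors dock, gave 7 tested members (Rpl4, Rpl17, Rpl19, Rpl23a, Rpl26, Rpl31 and Rpl35), of which 4 fell. These made 57.1%, beside 19.5% of all genes called lower. Rpl31 was at 225 and 227 TPM in 2D culture and at 183 and 184 TPM in 3D culture (log2 fold change -0.34, SE 0.057). Rpl35, a docking site for the signal recognition particle, was at 2504 and 2500 TPM in 2D and 2107 and 1973 TPM in 3D culture (log2 fold change -0.34, SE 0.077). Rpl19 (log2 fold change -0.29) and Rpl23a (-0.25) also fell, the latter just inside the threshold with an adjusted p of 0.04999 in limma. Rpl4 (-0.12), Rpl17 (-0.09) and Rpl26 (-0.15) were below 0 without passing the test.

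Of the stalk that recruits elongation factors, Rplp0, its base, fell from 2460 and 2393 TPM to 2141 and 2092 TPM (log2 fold change -0.24, adjusted p = 0.0394 in limma). Rplp1 (log2 fold change -0.24, adjusted p = 0.0597) and Rpl12 (-0.08, adjusted p = 0.437) did not pass. Rpl5 and Rpl11 enter the ribosome together with the 5S RNA, and outside it they bind Mdm2, the ligase that degrades p53. Rpl11 fell from 794 and 826 TPM to 693 and 677 TPM (log2 fold change -0.28, SE 0.070), whereas Rpl5 stood at 1121 and 1145 TPM in 2D and 1113 and 1038 TPM in 3D culture (log2 fold change -0.12, SE 0.076, adjusted p = 0.247 in limma). The difference between these members was not tested.

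In the small subunit, 13 of 26 members fell (50%, beside 19.5% of all genes called lower), with a median log2 fold change of -0.24. Rps25, a protein of the head that viral internal ribosome entry sites depend on, had the largest fall among canonical members. Its levels were 863 and 851 TPM in 2D and 674 and 678 TPM in 3D culture, with a gap between the groups far wider than the gap within either (log2 fold change -0.39, SE 0.058, adjusted p = 0.00822 in limma, a fall of 23.5% on the scaled values). Rps23, which lies at the decoding centre, fell from 3226 and 3333 TPM to 2778 and 2645 TPM (log2 fold change -0.32, SE 0.082).

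Among the proteins of the channel that the mRNA passes through, Rps2, at its entry, fell from 2174 and 2068 TPM to 1794 and 1723 TPM (log2 fold change -0.31, SE 0.067), and Rps28, at its exit, from 1591 and 1637 TPM to 1332 and 1296 TPM (log2 fold change -0.34, SE 0.072). Rps3 (-0.17) did not pass, with an adjusted p of 0.104 in limma. Reads of Rps28 and Rps2 may be shared with the copies named above. The Rps28-ps1 locus was at 4107 and 3795 TPM in 2D and 3859 and 3055 TPM in 3D culture, so that its groups overlapped. The Rps2-ps6 locus was at 725 and 820 TPM in 2D and 546 and 552 TPM in 3D culture, without overlap. Of the beak, the part of the head that moves as the ribosome takes up mRNA, all 3 tested members fell. Of all genes, 19.5% were called lower. Rps27a, which is made as a fusion with ubiquitin, went from 3487 and 3505 TPM to 3038 and 2816 TPM (log2 fold change -0.30, SE 0.083), Rps10 had a log2 fold change of -0.26 and Rps12 one of -0.24. Of 10 other settings that kept all cultures, Rps27a was called in 8, Rps10 in 6 and Rps12 in 3. The 3 most abundant members, Rps21, Rpl21 and Rps18, did not pass the test. Rps21 was at 9249 and 9161 TPM in 2D and 8015 and 7837 TPM in 3D culture (log2 fold change -0.26, SE 0.087, adjusted p = 0.0636 in limma) and Rpl21 had the same log2 fold change of -0.26 (adjusted p = 0.0749). Across the 64 members, the log2 fold change and the mean level had a Spearman rho of -0.15, a description over genes that share the same 4 libraries, beside -0.22 over all genes.

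A few members did not share the downward shift. Rps27, a zinc finger protein of the small subunit, was at 2543 and 2480 TPM in 2D and 2723 and 2500 TPM in 3D culture, with overlapping groups and a log2 fold change of 0.01 (SE 0.080, adjusted p = 0.921 in limma). Rpl10, which is among the last to join in the maturation of the large subunit, was at 1595 and 1562 TPM in 2D and 1639 and 1567 TPM in 3D culture (log2 fold change -0.02, SE 0.068, 95% interval -0.19 to 0.15). Rps18 (4260 and 4708 TPM in 2D, 4687 and 4175 TPM in 3D culture) and Rps7 (842 and 838 against 864 and 804 TPM) overlapped as well. The signs of Rps27, Rpl10, Rps18 and Rps7 turned under other settings or with a culture left out. The remaining members above 0 were those with the lowest levels. Rpl30 was at 5.14 and 2.69 TPM in 2D and 6.52 and 8.10 TPM in 3D culture (log2 fold change 0.76, SE 0.233, adjusted p = 0.05001 in limma), and it was called higher in 5 of 10 other settings that kept all cultures. Rps6, the substrate of S6 kinase, was at 102 and 33.3 TPM in 2D and 129 and 98.9 TPM in 3D culture, where the spread within 2D was wider than the gap between groups (log2 fold change 0.90, SE 0.473, adjusted p = 0.179 in limma).

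**Figure D3:**
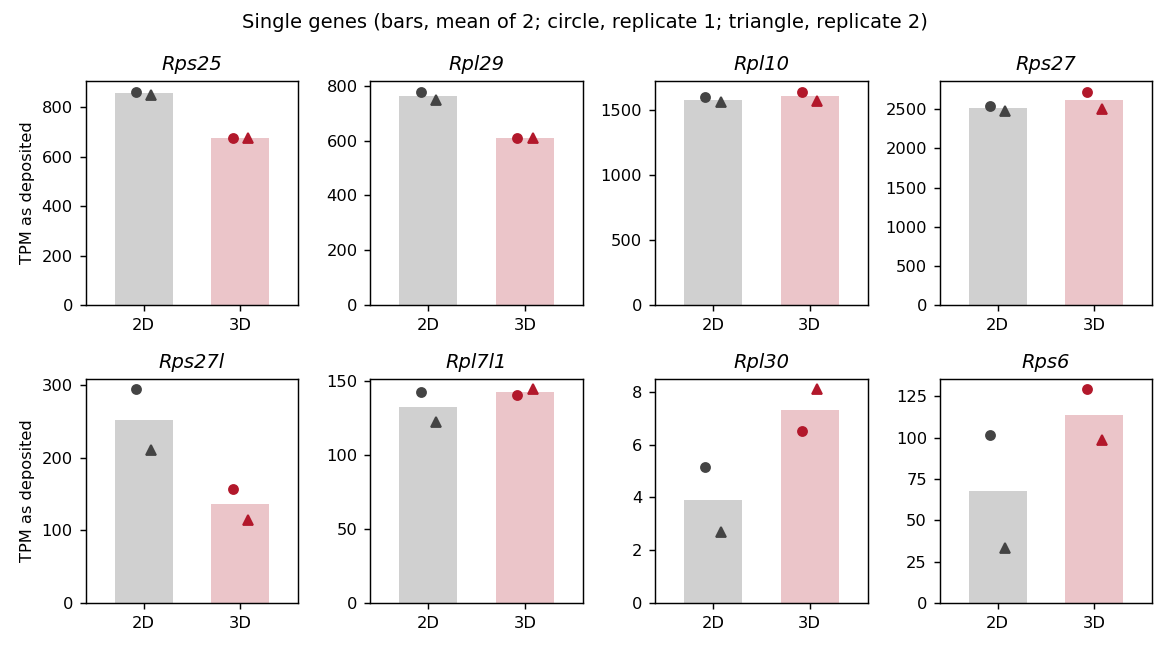
TPM as deposited (y axis, from 0) of 8 members in 2D (grey) and 3D (red) cultures; bars are means of 2 cultures, circles replicate 1 and triangles replicate 2. Rps25, Rpl29 and Rps27l have both 3D points below both 2D points, Rpl10, Rps27, Rpl7l1 and Rps6 overlap, and Rpl30 has both 3D points above.

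Most -like symbols encode paralogs of ribosomal proteins, some of which take the place of the canonical protein in part of the ribosomes. Rps19l2 may instead be Rps19 itself, as RefSeq also lists it as an older name of Rps19 and no symbol Rps19 was matched. Of the 5 -like symbols tested, 2 fell (40%, beside 19.5% of all genes called lower) and 0 rose in limma. The 2 that fell were Rps27l and Rps19l2, so the share depends on how Rps19l2 is classed. No further member had an unadjusted p below 0.05 in limma. Rps27l, a paralog of Rps27 that p53 induces, was at 295 and 211 TPM in 2D and at 158 and 115 TPM in 3D culture. On the scaled log2(TPM + 1) values this was the widest change of all 69 members, with Rps6 (0.90) close to it in size. The groups did not overlap, though the cultures of each group were well apart, and the log2 fold change was -0.93 (SE 0.194, 95% interval -1.41 to -0.44, adjusted p = 0.0178 in limma), a fall of 47.4% on the scaled values. It was called in 9 of 10 other settings that kept all cultures, with adjusted p-values from 3.92e-04 to 0.0730. Relative to Rps27 in the same culture, Rps27l stood at 11.6% and 8.51% in 2D and at 5.79% and 4.601% in 3D culture. The log2 ratio was thus lower by 0.94 in 3D culture, with no overlap and the exact two-sided p of 0.333 that is the smallest for 2 against 2. Of its 2 transcripts, ENSRNOT00000090977.1 fell from 103.4 and 103.1 TPM to 63.8 and 66.4 TPM (adjusted p = 0.0158 in limma over the 15020 transcripts tested). ENSRNOT00000072573.2 ranged from 191 and 108 TPM to 93.9 and 48.6 TPM, and the spread of the sum came from it.

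Rps19l2, which RefSeq also lists as an older name of Rps19, behaved in size like the canonical members that fell, from 1684 and 1605 TPM to 1372 and 1286 TPM (log2 fold change -0.35, SE 0.070, adjusted p = 0.0155 in limma). Rpl36al (log2 fold change -0.19) and Rpl22l1 (-0.17) lay below 0 without passing. Rpl7l1, which takes part in large subunit maturation, was at 142 and 122 TPM in 2D and 141 and 144 TPM in 3D culture (log2 fold change 0.07, SE 0.067). As a percent of Rpl7 it stood at 83.9% and 74.0% in 2D and 90.5% and 98.3% in 3D culture, a difference of 0.26 in the log2 ratio with an exact two-sided p of 0.333. Rpl36al over Rpl36a changed by -0.089 on the log2 scale, also without overlap. Of the calls in this group, 1 was made without 2D replicate 1, 2 without 2D replicate 2, and 0 without 3D replicate 1 or without 3D replicate 2 in limma (3 and 2 lower at an unadjusted p below 0.05).

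To see which members departed from the shared shift, the cultures were scaled to the summed TPM of the canonical members, a comparison added after the values were seen. On this scale, 2 of the 69 members were lower and 5 higher, where 4.59% of all genes were lower and 34.9% higher. Rps25 (log2 fold change -0.17) and Rps27l (-0.71) were lower relative to the other members. Rps27 (0.23, adjusted p = 0.00855 in limma), Rpl10 (0.20), Rps7 (0.16), Rpl30 (0.94) and Rpl7l1 (0.29) were higher. With either 3D culture left out, 0 members were called in limma in either direction (1 lower and 5 higher at an unadjusted p below 0.05 without 3D replicate 1, and 2 lower and 5 higher without 3D replicate 2). With 2D replicate 1 left out, 1 was lower and 5 higher, and with 2D replicate 2 left out, 1 lower and 4 higher.

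Most members, 47 of the 69, were listed with 1 transcript, and 22 had several. Where a symbol had several, the transcripts that carry its level and the rare ones moved in different directions, a pattern noticed after the values were seen. Of 40 transcripts with at least 5% of their symbol's TPM, 9 fell and 0 rose in limma (22 and 1 at an unadjusted p below 0.05, median log2 fold change -0.24), beside 12.8% and 10.8% of all transcripts tested. Of 22 transcripts with under 5%, which came from 12 symbols, 11 rose and 1 fell (median log2 fold change 0.44). Over all 365 such transcripts tested, those of the members included, 18.1% rose, 2.47% fell, 76.2% were above 0, and their median log2 fold change was 0.39.

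Rpl3, the protein next to the site of peptide bond formation, had the most abundant of the rare transcripts that rose. ENSRNOT00000092616.1 was at 28.0 and 26.6 TPM in 2D and 52.1 and 49.8 TPM in 3D culture (log2 fold change 0.82, SE 0.058, adjusted p = 0.0158 in limma). The summed level of Rpl3 was 1944 and 1802 TPM in 2D and 1811 and 1687 TPM in 3D culture, where the groups overlapped. In Rps18, ENSRNOT00000092625.1 rose from 12.8 and 14.4 TPM to 34.3 and 34.6 TPM (log2 fold change 1.22, SE 0.095), and ENSRNOT00000092262.1 from 14.7 and 14.4 TPM to 33.5 and 30.9 TPM (log2 fold change 1.03). Rare transcripts of Rpl13a, Rps9, Rps15a and Rps16, among others, rose as well, and that of Rpl17 fell. Added up, the 22 rare transcripts made 225 and 212 TPM in 2D and 354 and 322 TPM in 3D culture, or 1.00%, 0.94%, 1.66% and 1.62% of the TPM of their symbols. The files do not give their biotype. With 2D replicate 2, 3D replicate 1 or 3D replicate 2 left out, 0 of the rare transcripts were called higher in limma, and 9 without 2D replicate 1. At an unadjusted p below 0.05, the first 3 of these fits gave 12, 11 and 13.

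**Figure D4:**
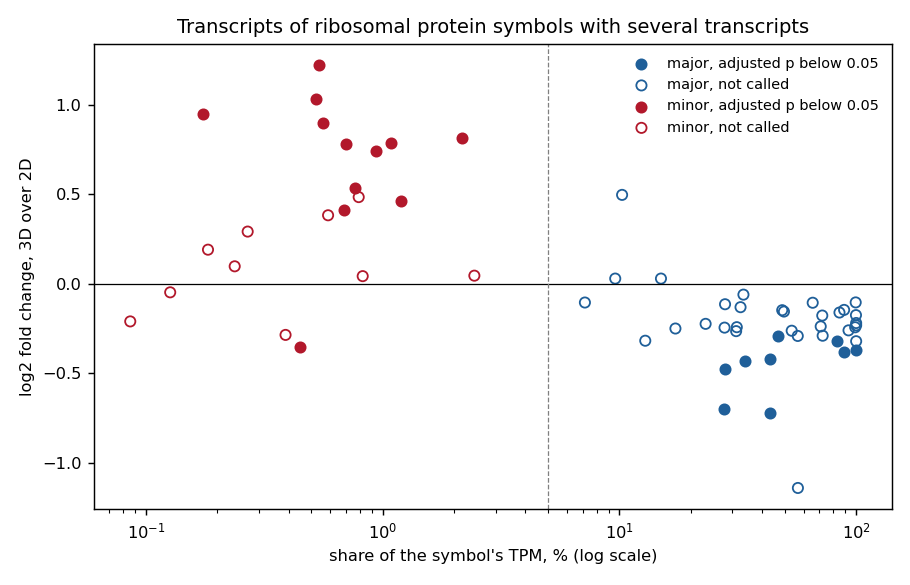
Log2 fold change, 3D over 2D (y axis), against the share of the symbol's TPM (x axis, percent on a log scale) for 62 transcripts of symbols with several listed; red marks shares under 5%, filled points an adjusted p below 0.05. Filled red points lie above 0 with 1 exception, and filled blue points lie below 0.

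Runs of pyrimidines, with which TOP mRNAs start, were looked for around the start sites of the members. The count below takes in runs that end before the annotated start, as in Rpl13a and Rpl21. It therefore does not by itself show a TOP element. RefSeq (GRCr8) gave a start for 52 of the 64 canonical members, and 67.3% of these had an unbroken run of at least 8 C or T on the sense strand within the 30 bases around the start (15 on each side), against 12.7% of 27457 genes. These 27457 genes stand for all genes in this paragraph and were not limited to those tested in the cultures. A comparison with expressed genes alone was not made. The run of at least 8 C or T was found in 16 of 22 matched members that fell and in 19 of 30 that did not pass the test. The letters CCGGAAG, a core bound by ETS factors such as GABP, were found on either strand of the 300 bases from 250 before to 50 after the start in 30.8% of the members and 9.63% of all genes, GGGCGG, the core of the Sp1 motif, on either strand in 59.6% and 36.0%, and TATAAA on the sense strand in 7.69% and 9.67%. The windows below show members that fell (Rpl29, Rpl35, Rpl31, Rps23, Rps2), members that did not (Rps27, Rpl10, Rps7) and the paralogs Rps27l and Rpl7l1, with the longest run of C or T in capitals. They were chosen for the results above and do not stand for all members, and Rps25 had no entry.
Rpl29: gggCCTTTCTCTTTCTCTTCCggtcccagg
Rpl35: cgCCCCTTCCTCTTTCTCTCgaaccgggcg
Rpl31: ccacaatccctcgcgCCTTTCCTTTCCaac
Rps23: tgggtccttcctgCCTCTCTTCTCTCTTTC
Rps2: CCTCTTCTTTTTCTTCgggaaaacacgtga
Rps27: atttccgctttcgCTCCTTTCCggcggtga
Rpl10: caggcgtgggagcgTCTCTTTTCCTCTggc
Rps7: tcgcgagagctgtgTCTCTTTCTaagccgg
Rps27l: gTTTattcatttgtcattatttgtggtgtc
Rpl7l1: agctgcagatgcattgtgggaagCCTTTaa
The windows lie at chr8:115947628-115947657 (plus strand) for Rpl29, chr3:43165907-43165936 (minus) for Rpl35, chr9:49143096-49143125 (plus) for Rpl31, chr2:23814502-23814531 (plus) for Rps23 and chr10:14251833-14251862 (plus) for Rps2. Those of the members without a fall are chr2:177964592-177964621 (minus) for Rps27, chrX:157205835-157205864 (plus) for Rpl10 and chr6:50999431-50999460 (minus) for Rps7, and those of the paralogs are chr8:76443643-76443672 (plus) for Rps27l and chr9:21695703-21695732 (plus) for Rpl7l1. Among the windows shown, the longest run was 18 bases in Rpl29 and Rpl35, 17 in Rps23, 16 in Rps2 and 12 in Rpl31. It was 13 in Rpl10, and 9 in Rps27 and Rps7. Rpl31, which fell, thus had a shorter run than Rpl10, which did not. Among members not shown, Rpl11, Rpl18, Rpl41 and Rps12 fell with a longest run of 3 bases around the annotated start. Rpl34, Rps24 and Rpl4 did not pass the test with runs of 20, 17 and 14. The annotated starts were not checked against the RNA of these cells, so a short run does not show that an mRNA lacks one. Whether run length goes with the fold change was not tested. The paralogs had short runs of 3 bases in Rps27l and 5 in Rpl7l1, and their log2 fold changes were the lowest of all members and one of the few above 0.

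Other genes of the translation apparatus were set beside the members from lists written for this comparison. Rack1, a scaffold on the small subunit that the symbol rule misses, did not pass (log2 fold change -0.16, adjusted p = 0.0829 in limma). Of 15 tested mRNAs listed as having a TOP element but encoding no ribosome component, 2 fell and 0 rose in limma (5 and 1 at an unadjusted p below 0.05). Their median log2 fold change was -0.13, and their start sites were not looked at here. The 2 that fell made 13.3% of the list, beside 19.5% of all genes called lower. Eif3l, a subunit of initiation factor eIF3, and Eef1d, of elongation factor eEF1, fell with log2 fold changes of -0.29 and -0.22. Naca, of the complex that shields new chains, had the next smallest p (log2 fold change -0.22, adjusted p = 0.0593). With 1 culture left out, 3 of the 15 were called lower without 2D replicate 1, 1 without 2D replicate 2, and 0 without 3D replicate 1 or without 3D replicate 2 in limma (1 and 2 at an unadjusted p below 0.05).

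Among 31 tested genes of ribosome biogenesis, 5 fell and 2 rose, with a median log2 fold change of -0.03. That is 16.1% of the list called lower, beside 19.5% of all genes (18.5% were called higher). Nop10, of the pseudouridylation complex, fell from 149 and 142 TPM to 101 and 98.8 TPM (log2 fold change -0.58, SE 0.052, adjusted p = 0.00407 in limma). Myc, a transcription factor that drives ribosome production, rose from 46.8 and 44.3 TPM to 75.3 and 65.4 TPM (log2 fold change 0.57, SE 0.085, adjusted p = 0.00808), while Fbl, the methylase of ribosomal RNA, fell from 225 and 229 TPM to 179 and 178 TPM (log2 fold change -0.39). Of the calls by limma in this list, 0 were left in either direction without 3D replicate 1 (6 lower and 2 higher at an unadjusted p below 0.05), and 1 lower and 2 higher without 3D replicate 2. Of 6 tested chaperones and partners of single ribosomal proteins, Rps19bp1 alone fell (80.5 and 87.0 TPM in 2D, 68.9 and 71.1 TPM in 3D culture, log2 fold change -0.30, adjusted p = 0.0304 in limma). This made 16.7% of the list, beside 19.5% of all genes called lower. The values of Tsr2, which carries Rps26, were 0.20 (adjusted p = 0.0586), and of Grwd1, which carries Rpl3, 0.11 (adjusted p = 0.213).

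**Figure D5:**
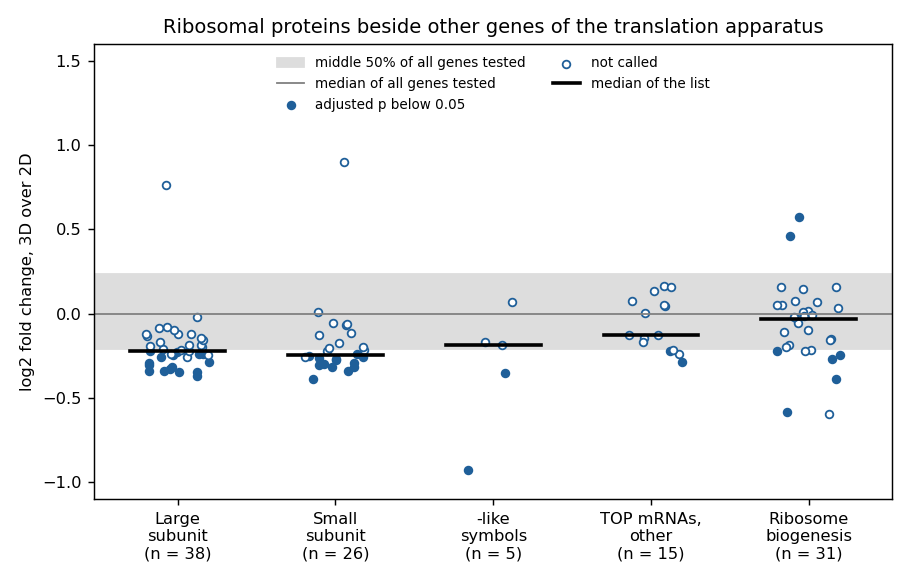
Log2 fold change, 3D over 2D (y axis), of single genes (points, filled where the adjusted p is below 0.05) in each list, with the list's median (black bar) and the range between the quartiles of all genes tested (grey band). The medians of the large and small subunits, -0.22 and -0.24, lie just below the band, those of the other lists within it.

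The sums of TPM were 1000000 in each of the 4 files, with 19355 to 19959 transcripts above 0, and values in TPM carry no read counts from which a counting error could be taken. All 7 markers of beta cells looked at were present, led by Ins1 at 114003 to 137822 TPM, of which Ins2 fell (log2 fold change -0.58), Slc2a2, the glucose transporter, rose (0.39) and 5 did not pass. Of the markers of other cells, Cdh5 and Ptprc were listed at 0 in all cultures, Col1a1 and Sst were under 1 TPM, Pdgfra was at 1.87 to 2.32 TPM, and the alpha cell hormone Gcg rose from 41.9 and 73.8 TPM to 124 and 155 TPM. Their part in the results was not tested.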

How the data were processed

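Poly(A) RNA of 4 INS-1 cultures was sequenced from stranded libraries as single-end reads of 75 bases. The authors quantified transcripts with Salmon 1.2 (FastQC 0.11.8 for read quality, build rn4, per the submitters' processing notes) and deposited TPM per transcript, written with decimal commas and without counts or lengths. The transcript names may come from a later annotation than this build, which was not checked. Groups and replicate numbers came from the sample titles.

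Per-transcript TPM were added up by symbol. The 11960 symbols whose mean reached 1 TPM entered the tests, after cultures were scaled by trimmed means of M values with equal weights (30% of M and 5% of A trimmed, factors 0.960 to 1.02). Because TPM are no counts, limma 3.58.1 (empirical Bayes with intensity trend, R 4.3.3) was run on log2(TPM + 1) without a replicate block, with Benjamini-Hochberg adjustment over all genes and a threshold of 0.05. Fold changes are on this scale, which understates changes of low genes. The 15020 transcripts that reached the same mean were fitted likewise. Steps were tested on simulated data.

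The members and lists were chosen with earlier results of these data known. Genes named were the 10 lowest canonical members by log2 fold change, all above 0, the 5 most and 5 least abundant, the -like symbols, the structural groups and pairs, and the 3 with the smallest p of other lists. Rps7, Rpl18, Rpl34, Rps24, the single transcripts and the symbols they belong to were named after their values were seen. Some genes that meet these rules are counted but not reported by name here. TPM keep no depth, so no counting interval is given. The labels call the 2 cultures of a group biological replicates of 1 passage, and p-values measure the spread between these. Sequences came from RefSeq tables of GRCr8, where 55 of 69 members matched. A comparison with protein length was not run, as no protein table was used here. Alternatives were scaling, pseudocount, filter, block, trend, threshold, top transcript and each culture left out.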

Additional observations from a re-analysis of the deposited data

How the results depend on the processing

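The median log2 fold change of the canonical members stayed below 0 in every setting tried, from -0.27 to -0.18, and that of all genes between -0.0084 and 0.0364. The count of canonical members called lower (29) was less stable: 17 without a filter on low values, 8 with the replicate block, 3 at an adjusted p below 0.01, and 0 to 24 with each culture left out, while TPM without scaling gave 38. Members called higher went from 0 to 1 with scaling factors computed without the members, a mean TPM of at least 5, median of ratios scaling or a pseudocount of 5, to 2 with the replicate block, and to 0 to 2 with a culture left out. Of all genes, 4543 were called, 1436 at an adjusted p below 0.01 and 136 to 4526 with a culture left out. The 2 -like members called lower became 1 with the top transcript alone, 0 at an adjusted p below 0.01 and 0 to 2 with a culture left out. The 2 TOP mRNAs called lower became 1 without the intensity trend, 0 at an adjusted p below 0.01 and 0 to 3 with a culture left out. Biogenesis genes called lower (5) became 2 at an adjusted p below 0.01 and 0 to 6 with a culture left out, and those called higher (2) became 5 without scaling, 1 at an adjusted p below 0.01 and 0 to 2 with a culture left out. Relative to the members' own total, 2 lower and 5 higher became 1 and 1 without the trend, 6 and 10 with the replicate block, and 0 to 1 and 0 to 5 with a culture left out. The 11 rare transcripts called higher became 0 to 9 with a culture left out. The share of TPM was 11.4% in 2D and 10.1% in 3D with the -like members, 12.8% and 11.4% without the insulin transcripts, and 11.4% and 10.1% with the loci tied to members by RefSeq synonyms. The log2 fold change of Rpl10 turned to 0.0019 with a mean TPM of at least 5, 0.022 without scaling, and ran from -0.065 without 3D replicate 1 to 0.024 without 3D replicate 2. That of Rps18 ran from -0.17 without 2D replicate 1 to 0.045 without 2D replicate 2 (0.035 without 3D replicate 2), that of Rps27 to -0.026 without a filter, -0.010 without 2D replicate 1 and -0.061 without 3D replicate 1, up to 0.086 without 3D replicate 2, and that of Rpl7l1 ran from -0.0067 without 2D replicate 2 to 0.14 without 2D replicate 1. That of Rps7, named after its values were seen, ran from -0.12 to 0.0092 with a culture left out. Of the 714 values of the 51 genes named by the rule under other settings, 581 kept direction and side of the threshold, 106 lost the call, 18 gained it and 9 turned. The causes were not tested. Whether the replicate numbers pair the cultures is not known. The departures from the group mean of cultures with the same number correlated at -0.006 over all genes and 0.24 over the canonical members. These come from 2 pairs, which are too few to decide it. With 2 cultures per group and no read counts per gene, differences smaller than the spread between the 3D cultures could not be shown.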
